A study of Mus musculus with 514 samples.

Results

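The 9 genes described here encode proteins of the junctions that hold blastomeres together, and were followed from the oocyte to the 8-cell embryo in mice without the nuclear receptors Nr5a2, Esrrb or both. They were chosen by name: the adherens junction genes Cdh1 and Ctnnb1, the claudins Cldn4, Cldn6 and Cldn7, the tight junction membrane genes Ocln and F11r, and the plaque genes Tjp1 and Cgn. All 9 were found among the 55168 named genes of the table of full-length reads. The values come from RNA-seq of single oocytes and embryos, by a protocol derived from FLASH-seq, and are TPM, a transcript's share of the library scaled to a fixed total, corrected for transcript length, which keeps no read counts, so the depth is unknown. Genotyping primers were present during cDNA amplification.

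In knockout embryos labelled mz both the maternal and the zygotic copies were affected, in m embryos only the maternal and in z embryos only the zygotic ones. NrKO stands for a knockout of Nr5a2, EKO for one of Esrrb and DKO for one of both. The controls are not all wild type. DHet embryos were heterozygous for deletions of both genes, NrHet for a deletion of Nr5a2, and Nrpp carried only wild-type or floxed alleles. At the 8-cell stage (8C) 21 mz_DHet embryos stood beside 10 mz_EKO, 10 mz_NrKO and 10 mz_DKO embryos. The 4-cell stage (4C) had 6 mz_DHet, 4 mz_EKO, 5 mz_NrKO and 10 mz_DKO. At the late 2-cell stage (L2C) there were 7 mz_DHet, 10 mz_EKO, 10 mz_NrKO, 6 mz_DKO, 7 z_NrHet and 6 z_NrKO. Early 2-cell (E2C) embryos numbered 21 mz_Nrpp, 29 mz_NrHet, 22 mz_NrKO, 18 m_NrKO and 12 z_NrKO. Oocytes at metaphase II numbered 9 Nrpp, 18 NrHet and 12 NrKO. The labels name no strain, age, mother, litter or Cre driver, so litter mates are not marked and the spread behind each p-value is that of single embryos.

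Compaction is the step in which the rounded cells of the 8-cell mouse embryo flatten against each other. It depends on E-cadherin, the product of Cdh1, whose tail binds β-catenin, the product of Ctnnb1, and through it the actin cortex. Tight junctions are assembled afterwards, in outer cells, from transmembrane proteins (claudins, occludin and the junctional adhesion molecule encoded by F11r) and cytoplasmic plaque proteins (ZO-1, encoded by Tjp1, and cingulin, encoded by Cgn), and they seal the epithelium that later pumps up the blastocoel.

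Cldn4 and Cgn were the members that were lower together in the embryos without Nr5a2 at 8C, while Cldn7, the most abundant member, was not called. The 250 bases before the RefSeq start of these 3 genes are shown for that reason, 5′ to 3′ on the gene's strand (RefSeq, GRCm38.p6, the mm10 genome), for Cldn4 at chr5:134946935-134947184 on the minus strand, for Cgn at chr3:94786483-94786732 on the minus strand and for Cldn7 at chr11:69964529-69964778 on the plus strand. Capitals mark matches to any of 5 motifs.
Cldn4: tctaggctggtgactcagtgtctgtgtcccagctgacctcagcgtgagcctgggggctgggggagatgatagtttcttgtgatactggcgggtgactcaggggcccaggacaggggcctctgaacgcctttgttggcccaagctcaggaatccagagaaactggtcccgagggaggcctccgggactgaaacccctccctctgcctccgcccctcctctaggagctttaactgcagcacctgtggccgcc
Cgn: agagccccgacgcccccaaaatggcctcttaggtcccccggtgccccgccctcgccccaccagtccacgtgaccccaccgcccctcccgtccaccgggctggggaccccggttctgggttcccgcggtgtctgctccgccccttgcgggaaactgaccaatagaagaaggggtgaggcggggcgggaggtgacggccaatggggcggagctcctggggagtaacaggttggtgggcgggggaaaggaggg
Cldn7: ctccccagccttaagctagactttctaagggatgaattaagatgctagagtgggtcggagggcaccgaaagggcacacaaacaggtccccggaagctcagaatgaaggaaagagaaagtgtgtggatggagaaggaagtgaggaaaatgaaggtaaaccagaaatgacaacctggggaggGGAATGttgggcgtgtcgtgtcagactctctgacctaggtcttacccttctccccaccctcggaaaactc
The motifs searched, on both strands, were TCAAGGTCA, TCAAGGCCA and the AAGGTCA contained in the first (sites of Nr5a2 and Esrrb), GCCNNNGGC (Tfap2c) and CATTCC (Tead4). None of these letters occurred in the Cldn4 or Cgn window, and Cldn7 held 1 match, to CATTCC on the minus strand, from 70 to 65 bases before the start. Cldn7 has a second start site in RefSeq, not shown, whose window held none. Of 32851 mouse promoter windows of the same length, 0.387% held TCAAGGTCA, 0.511% TCAAGGCCA, 4.08% AAGGTCA, 13.7% GCCNNNGGC and 12.6% CATTCC. Among the other members with an entry, GCCNNNGGC matched in Ctnnb1 and in 1 of 2 start sites of Ocln, and AAGGTCA matched in none of the 8 members with an entry. A match is a description of letters, and the absence of one says nothing of binding elsewhere. Cdh1 spans 106603351 to 106670246 on chromosome 8 and is named without sequence.

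Libraries differed in ways that touch these results. Between 10863 and 14039 genes exceeded 1 TPM in an 8C library. The 8C libraries carry 3 dates (23 February, 8 March and 15 July 2022), with mz_EKO and mz_DKO absent on 15 July, and in mz_DHet 51.5% of the genes tested differed between 15 July and 8 March. The 4C libraries carry other dates (22 May and 17 June 2022), so 4C and 8C share none. Transcripts of blood genes summed to over 1000 TPM in 3 of the 4C libraries (2 mz_DHet, 1 mz_DKO). At 8C the 8 blood markers summed to at most 96.9 TPM in a library, the 10 cumulus and granulosa markers to at most 3.67, the 6 sperm markers to at most 4.91 and the 8 oviduct markers to at most 30.6. The receptor genes do not check the labels of every group: over the whole gene Nr5a2 averaged 472 TPM ± 144 (SD, n = 21) in mz_DHet and 597 ± 241 (n = 10) in mz_NrKO at 8C, and gene-level values do not show which exons were read. Esrrb averaged 47.8 ± 15.5 TPM in mz_DHet, 18.0 ± 8.15 in mz_EKO and 26.8 ± 10.7 in mz_DKO. In reads from 5′ ends with a molecular identifier Esrrb averaged 41.4 TPM ± 14.1 in mz_DHet (n = 16), 1.72 ± 0.618 in mz_EKO (n = 9) and 3.30 ± 1.15 in mz_DKO (n = 9).

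In control embryos the members followed different courses before compaction. Cdh1, Ctnnb1 and Cgn were present in NrHet oocytes and had lower means in E2C mz_NrHet and in L2C and 4C mz_DHet, though Cgn averaged 123 TPM ± 15.6 (n = 9) in Nrpp oocytes and 129.6 ± 39.8 (n = 21) in E2C mz_Nrpp. Cldn6, Cldn7, Ocln and F11r were near 0 or low in oocytes and E2C embryos and appeared by L2C. Cldn4 was present in oocytes, low in cleavage and among the most abundant members at 8C, and Tjp1 was highest at E2C. Oocytes and E2C embryos share no date with later stages, so these levels are given without a test across that step.

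Cdh1, the gene of E-cadherin, ranged from 95.1 to 217 TPM (median 127) in 18 NrHet oocytes. It lay between 7.48 and 43.1 (median 25.4) in 29 E2C mz_NrHet embryos and between 6.80 and 21.6 (median 13.7) in 7 L2C mz_DHet embryos. At 4C the 6 mz_DHet embryos ranged from 0 to 7.55 TPM (median 4.40), and at 8C the 21 mz_DHet embryos from 14.8 to 141 (median 100.1). Thus no 4C control reached the lowest 8C control. Ctnnb1, the gene of β-catenin, ranged from 173 to 326 TPM in NrHet oocytes and from 27.2 to 163 at E2C, and had medians of 46.7 (L2C), 41.4 (4C) and 33.8 (8C). Its 4C and 8C ranges overlapped, from 21.3 to 56.6 and from 6.29 to 72.3 TPM.

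Cldn4 encodes a claudin of tight epithelia. It ranged from 2.01 to 39.8 TPM (median 15.6) in NrHet oocytes, from 0 to 4.63 (median 0.748) in E2C mz_NrHet and from 0 to 15.5 (median 3.36) in L2C mz_DHet. In 4C mz_DHet it lay between 0 and 6.31 TPM (median 0.691), with 2 of 6 embryos at 0, and at 8C between 253 and 936 TPM (median 616). Cldn6, a claudin of early embryonic epithelia, was at 0 in all 39 oocytes, had an L2C range of 16.6 to 95.7 TPM in mz_DHet (median 25.6), a 4C range of 1.17 to 28.9 (median 9.24) and an 8C range of 4.89 to 68.6 (median 26.4). Cldn7, a further claudin, ranged from 14.8 to 338 TPM at L2C, from 42.7 to 167 at 4C and from 357 to 1387 at 8C, with no overlap between the last 2 ranges. Reads shared among members of the claudin family could be divided between them by the authors' counting, and this was not tested.

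F11r, the gene of junctional adhesion molecule A, had a median of 0.421 TPM in NrHet oocytes and 5.22 in E2C mz_NrHet. It then ranged from 100.4 to 279.9 at L2C, from 130.2 to 189 at 4C and from 80.1 to 372 at 8C in mz_DHet. Ocln, the gene of occludin, had a median of 4.73 TPM in NrHet oocytes and 1.30 at E2C, then of 28.2 (L2C), 20.6 (4C) and 46.6 (8C). Tjp1 was highest at E2C, with a median of 47.6 TPM, against 12.5 in NrHet oocytes, and stood at 6.06 (L2C), 8.43 (4C) and 9.63 (8C). Cgn ranged from 117 to 193 TPM (median 144) in NrHet oocytes and had medians of 91.4 (E2C), 28.1 (L2C), 16.2 (4C) and 39.4 (8C). Over these groups, Cdh1, Ctnnb1 and Cgn had their highest median in oocytes, and Tjp1 at E2C. Parts of Ctnnb1 and Tjp1 overlap other annotated genes, of which Ulk4, on the strand opposite Ctnnb1, averaged 6.22 TPM in 8C mz_DHet and the rest were at or under 0.406.

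**Figure D1:**
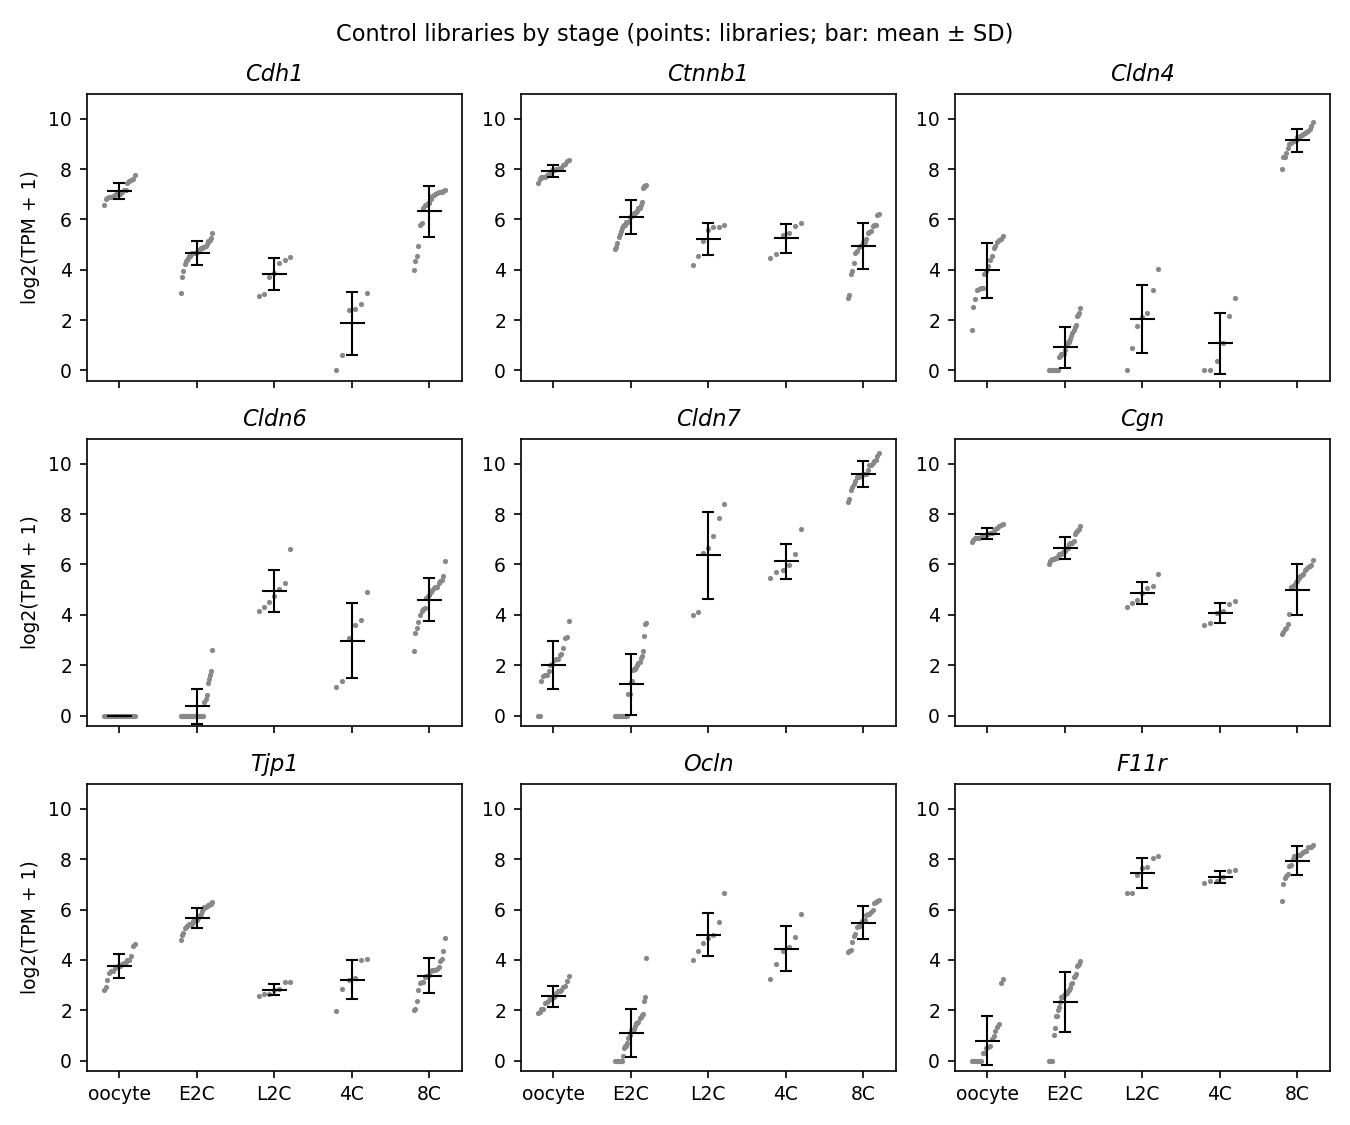
Level of each member in control libraries by stage, as log2(TPM + 1); controls are NrHet oocytes (18), mz_NrHet embryos at E2C (29) and mz_DHet embryos at L2C (7), 4C (6) and 8C (21). Points are single libraries and bars the mean ± SD; Cldn4 stands at 15.5 TPM or less from E2C to 4C and between 253 and 936 TPM at 8C.

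By mean level in 8C mz_DHet the order was Cldn7 (809 TPM), Cldn4 (589.7), F11r (261), Cdh1 (93.9), Ocln (47.7), Cgn (37.6), Ctnnb1 (35.1), Cldn6 (27.2) and Tjp1 (10.6). The SDs were 276, 168, 83.7, 43.6, 20.0, 19.9, 18.8, 14.9 and 5.69 in the same order (n = 21). Neighbours from Ocln to Cldn6 in this order differed by less than their spread.

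The steps between stages were tested in mz_DHet with limma on log2(TPM + 1) over the L2C, 4C and 8C libraries, with date in the fit and Benjamini-Hochberg adjustment over 18111 genes (called at an adjusted p under 0.05). From 4C to 8C, 4 of 9 members rose and none fell, where 11.6% of all genes tested rose and 27% fell. The median change of the members was 0.98 on the log2 scale, against -0.44 over all genes. With median-of-ratios scaling the median over all genes was -0.23, 41.1% of the called genes rose in place of 30.1%, and Ocln passed as well. Cldn4 rose by 8.54 ± 0.72 (log2, ± SE, adjusted p = 3.49e-19), Cdh1 by 4.71 ± 0.67 (3.75e-09), Cldn7 by 3.94 ± 0.50 (8.11e-11) and F11r by 1.35 ± 0.41 (0.00579), all in limma. Cldn4 was near 0 in 4C controls (median 0.691 TPM), so the size of its rise depends on the 1 TPM added before the log. The other 5 had changes from -0.10 (Cldn6) to 0.98 (Ocln) and did not pass. Cgn is one of these: its fitted change was 0.28 ± 0.39 although its control mean went from 16.4 to 37.6 TPM, and its 8C level differed widely by date.

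The same 4 members rose from L2C to 8C, where 14.8% of genes rose: Cldn4 by 7.60 ± 0.59, Cldn7 by 4.51 ± 0.41, Cdh1 by 2.78 ± 0.54 and F11r by 1.07 ± 0.34. With median-of-ratios scaling Ocln and Tjp1 passed too, and 40% of the called genes rose in place of 29.4%. That step can be taken within the date 8 March 2022, on which limma gave 8.92 for Cldn4, 5.79 for Cldn7, 3.23 for Cdh1 and 1.58 for F11r. Only 2 L2C mz_DHet libraries are of that date. Their Cldn7 stood at 14.8 and 16.2 TPM, against 87.4 to 338 in the 5 of 22 May. Between L2C and 4C 0 of 9 members changed, where 0.0221% of all genes did (1307 of 18111 at an unadjusted p under 0.05). As 4C and 8C share no date, the 4C to 8C step rests on the L2C libraries that share a date with each. The F11r call was lost in a fit without date (0.66, adjusted p = 0.0512), in which Cgn, Cldn6 and Ocln also passed.

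At 8C the question was which junction genes differ when the embryo lacks Nr5a2, Esrrb or both. In mz_NrKO, 3 of 9 members fell (Cldn4, Cgn and Cdh1) and none rose, where 14.2% of the 10876 genes tested fell and 14.1% rose. The members' median change was -0.09, against 0.00 over all genes. In mz_DKO, 2 of 9 fell (Cldn4 and Cgn), where 14.8% of genes fell and 18.9% rose, with a members' median of -0.00 against 0.05. In mz_EKO no member was called, where 0.00919% of genes were, by limma with date in the fit (257 genes had an unadjusted p under 0.05). All 9 members passed the filter on low values at 8C. In a bulk embryo, fewer cells that transcribe a gene and less RNA in each cell cannot be told apart.

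Cldn4 moved most. Its level lay between 253 and 936 TPM (median 616) in mz_DHet and between 421 and 936 (median 612) in mz_EKO. In mz_NrKO it lay between 15.1 and 570.2 (median 157) and in mz_DKO between 10.2 and 318 (median 107). All 10 mz_NrKO and all 10 mz_DKO embryos were below the control median, and 7 of the former and 9 of the latter were below the lowest control. The means were 589.7 TPM ± 168 (SD, n = 21), 624.8 ± 165 (n = 10), 200.5 ± 168 (n = 10) and 139 ± 92.6 (n = 10) in mz_DHet, mz_EKO, mz_NrKO and mz_DKO. The log2 fold change against mz_DHet was -1.98 ± 0.34 in mz_NrKO (limma, adjusted p = 1.58e-05) and -2.53 ± 0.35 in mz_DKO (8.69e-08). In mz_EKO it was -0.01 ± 0.35 (adjusted p = 1). Even the lowest knockout embryos exceeded the 4C controls, whose highest value was 6.31 TPM.

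Cgn, whose product cingulin links the tight junction plaque to actomyosin, moved the same way. It ranged from 8.38 to 70.6 TPM (median 39.4) in mz_DHet, from 8.18 to 73.1 (median 45.2) in mz_EKO, from 6.88 to 25.7 (median 14.7) in mz_NrKO and from 3.33 to 25.6 (median 12.6) in mz_DKO. The groups overlapped, with the mz_DHet embryos of 23 February and 15 July at 15.5 TPM or less, but all 10 mz_NrKO and all 10 mz_DKO embryos were below the control median. The log2 fold change was -0.92 ± 0.20 in mz_NrKO (limma, adjusted p = 0.000363) and -1.45 ± 0.20 in mz_DKO (1.11e-07), and 0.09 ± 0.20 in mz_EKO (1).

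Cdh1 fell less. Its level ranged from 14.8 to 141 TPM (median 100.1) in mz_DHet, 58.6 to 144 (median 103) in mz_EKO, 4.56 to 83.0 (median 63.7) in mz_NrKO and 26.6 to 122 (median 76.2) in mz_DKO. All 10 mz_NrKO embryos and 9 of 10 mz_DKO embryos were below the control median. The log2 fold change was -0.71 ± 0.27 in mz_NrKO (limma, adjusted p = 0.0378) and -0.62 ± 0.27 in mz_DKO (0.0672, not called). The mz_NrKO call rests on 1 library: mz_NrKO library 7 had Cdh1 at 4.56 TPM and Tjp1 at 0, with 11268 genes over 1 TPM, and without it the Cdh1 change was -0.28 (adjusted p = 0.237). Without mz_NrKO library 4 its adjusted p was 0.059, and without library 7 the mz_DKO change of Cdh1 passed at 0.00163. Without a filter on low values the adjusted p for mz_NrKO was 0.0926.

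Tjp1, the gene of the scaffold ZO-1, ranged from 3.06 to 28.6 TPM (median 9.63) in mz_DHet, from 7.99 to 26.5 (median 13.9) in mz_EKO and from 0 to 20.0 (median 6.00) in mz_NrKO. Its change in mz_NrKO was -0.60 ± 0.26 (limma, adjusted p = 0.0817), which did not pass, and in mz_DKO -0.28 ± 0.27 (0.464). Cldn7 ranged from 357 to 1387 TPM in mz_DHet, 519 to 1222 in mz_NrKO and 612 to 1630.3 in mz_DKO, with changes of 0.32 ± 0.16 (0.123) and 0.38 ± 0.16 (0.0562). The remaining members, Ctnnb1, Cldn6, F11r and Ocln, had changes from -0.09 to 0.15 in mz_NrKO and from -0.00 to 0.48 in mz_DKO, with adjusted p from 0.170 to 0.998 in limma. The largest of these was that of Ocln in mz_DKO, 0.48 ± 0.27, where 5 of 10 embryos exceeded the highest control.

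**Figure D2:**
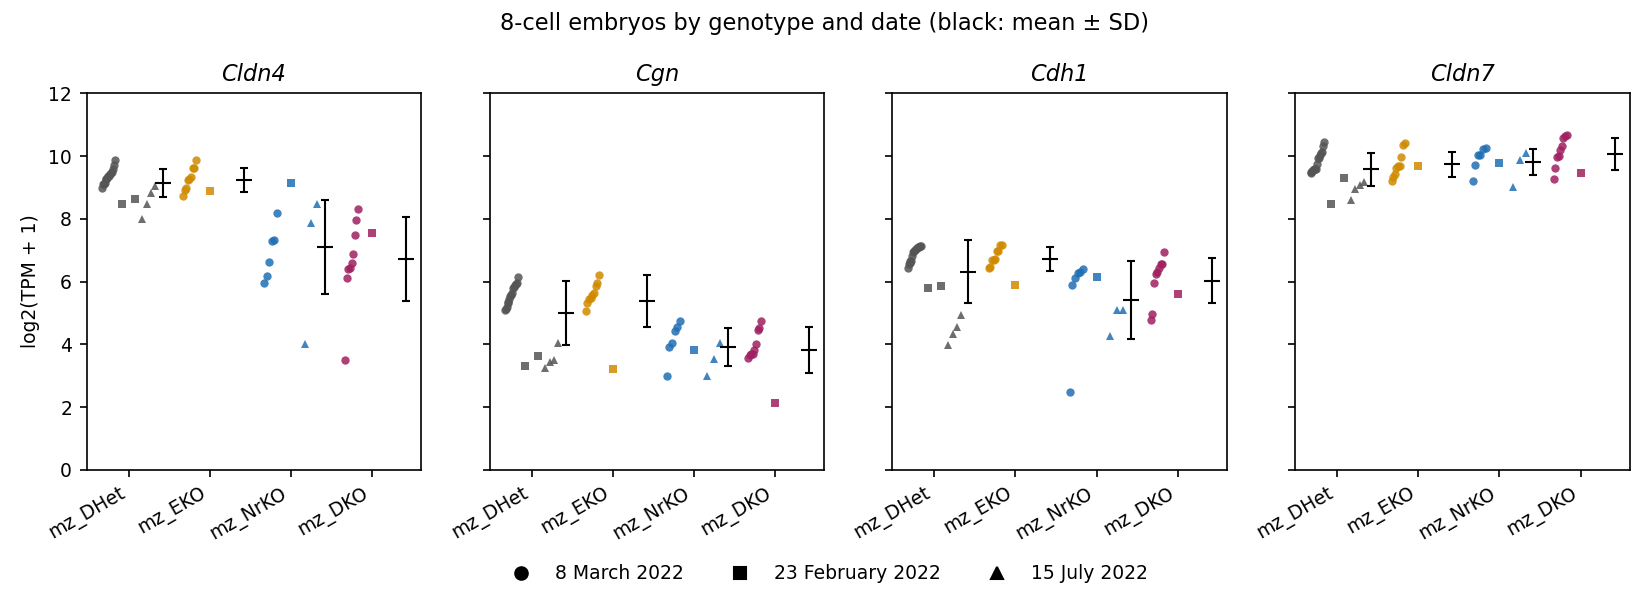
Level of 4 members in each 8C embryo, as log2(TPM + 1), by genotype and by date (symbols), with the mean ± SD of each genotype in black. Cldn4, Cgn and Cdh1 lie lower in mz_NrKO and mz_DKO on 8 March (circles), Cldn7 does not, and the mz_DHet embryos of 15 July (triangles) are low for Cgn and Cdh1.

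The 2 single knockouts were compared directly. Against mz_EKO, mz_NrKO was lower for 3 of 9 members, where 11.8% of genes were: Cldn4 by -1.97 ± 0.41 (limma, adjusted p = 0.000351), Cgn by -1.02 ± 0.24 (0.00143) and Tjp1 by -0.97 ± 0.32 (0.0223). The Tjp1 difference was lost without mz_NrKO library 7 (-0.56, adjusted p = 0.0929). Between mz_DKO and mz_NrKO none of the 9 members was called, where 0.147% of genes were and 1092 had an unadjusted p under 0.05. The fitted differences there were -0.55 ± 0.41 for Cldn4, -0.53 ± 0.24 for Cgn and 0.09 ± 0.32 for Cdh1, so a further change of about that size was not detectable with these embryos.

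The falls were also read within dates, since the dates differ. In mz_DHet 7 of 9 members (all but Cldn4 and Cldn6) differed between 15 July and 8 March, beside 51.5% of all genes differing in either direction. These 7 were all lower on 15 July, and the share of all genes that were lower is not given here. Cdh1 differed by -2.43 ± 0.36, Cgn by -2.04 ± 0.25 and Ctnnb1 by -1.67 ± 0.29. On 8 March (15 mz_DHet, 6 mz_NrKO), where 29.2% of genes differed between these genotypes, Cldn4 changed by -2.45 ± 0.41 (limma, adjusted p = 8.73e-06), Cgn by -1.48 ± 0.21 (5.38e-07), Cdh1 by -1.30 ± 0.31 (0.00115) and Tjp1 by -0.90 ± 0.33 (0.0341). On that date no mz_NrKO embryo overlapped the controls for these first 3 genes, and the share of all genes without overlap was not counted. Cldn4 lay between 61.3 and 289 TPM against 509.8 to 936, Cgn between 6.88 and 25.7 against 33.0 to 70.6, and Cdh1 between 4.56 and 83.0 against 85.8 to 141. Without mz_NrKO library 7 the 8 March change of Cdh1 was -0.68 (adjusted p = 0.0130).

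On 15 July (4 mz_DHet, 3 mz_NrKO), where 11.4% of genes differed, Cldn4 changed by -1.81 ± 0.65 (limma, adjusted p = 0.0612), Cgn by -0.03 ± 0.34 (0.970) and Cdh1 by 0.36 ± 0.49 (0.718). The 3 mz_NrKO embryos of that date had Cldn4 at 15.1, 232 and 355 TPM, against 253 to 528 in the controls. Cgn lay between 6.93 and 15.5 against 8.38 to 15.5, and Cdh1 between 18.1 and 33.5 against 14.8 to 29.8. F11r was higher in mz_NrKO on that date (0.90 ± 0.29, adjusted p = 0.0358), but in a fit of the 15 July libraries alone no member was called. The difference between the dates in the mz_NrKO effect was tested and called for no member, where 1.09% of genes were called: for Cgn it was -1.45 ± 0.40 (adjusted p = 0.0545), for F11r -1.19 ± 0.35 (0.0716) and for Cdh1 -1.66 ± 0.58 (0.146). On 23 February the single mz_NrKO embryo had Cldn4 at 570.2 TPM, above the 354 and 398 of the 2 mz_DHet embryos, and the single mz_DKO embryo had 186. Cgn and Cdh1 were likewise higher in that mz_NrKO embryo, at 13.1 TPM against 8.97 and 11.4 for Cgn and at 69.3 against 54.2 and 56.7 for Cdh1. In full-length reads all 3 genes that fell in mz_NrKO thus ran the other way on that date, with 1 embryo. Reads from 5′ ends with a molecular identifier, described below, gave no second reading of that embryo. The number of genes over 1 TPM moved with the date too, with medians of 12660 on 8 March and 11353.5 on 15 July in mz_DHet, and 13200 and 12798 in mz_NrKO. Its part in these values was not tested.

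Reads with a unique molecular identifier (UMI), which mark the 5′ ends of transcripts, came from the same libraries and were normalized on their own, so they are a second reading and not an independent one. By label the 8C UMI libraries are a subset, 16 of 21 mz_DHet and 5 of 10 mz_NrKO, with none of 15 July, the date on which Cgn and Cdh1 were not lower in mz_NrKO. Library numbers at 8C did not match between the 2 readings. In mz_DKO Cldn4 stood at 152, 80.4, 66.0, 68.5, 114, 73.4, 6.13, 205 and 240 TPM in UMI libraries 1 to 9. Full-length libraries 2 to 10, all of 8 March, held the same order, at 179, 96.1, 68.9, 83.5, 118, 84.6, 10.2, 246 and 318. In mz_NrKO UMI libraries 1 to 5 it stood at 138, 251, 61.8, 74.1 and 55.8. Full-length mz_NrKO libraries 2 to 6, also of 8 March, held that order too, at 158, 289, 70.8, 98.2 and 61.3. By these values the UMI libraries labelled 23 February in these 2 groups followed embryos of 8 March. The UMI fits at 8C used the labelled dates. In UMI reads at 8C Cldn4 averaged 523 TPM ± 136 (SD, n = 16) in mz_DHet, 116 ± 82.4 (n = 5) in mz_NrKO and 112 ± 74.6 (n = 9) in mz_DKO. Its log2 fold changes were -2.36 ± 0.43 (limma, adjusted p = 7.32e-05) and -2.59 ± 0.35 (1.86e-07). Cgn averaged 4.76 ± 2.24, 0.671 ± 0.506 and 0.593 ± 0.231 TPM, with changes of -1.70 ± 0.34 (0.000276) and -1.72 ± 0.28 (5.74e-06). Cdh1 averaged 43.0 ± 12.6, 28.6 ± 3.87 and 26.5 ± 9.36 TPM, and its changes of -0.45 ± 0.33 (0.347) and -0.62 ± 0.27 (0.0741) did not pass. All 5 mz_NrKO and all 9 mz_DKO UMI libraries were below the Cdh1 control median of 44.7 TPM. Apart from library 12 the mz_DHet UMI libraries lay between 32.7 and 57.1 TPM for Cdh1. The mz_NrKO libraries lay between 24.6 and 33.4 and the mz_DKO libraries between 12.1 and 39.7. The mz_DHet UMI library 12 was the lowest control for Cdh1 (3.03 TPM), Cgn (0), Tjp1 (0.190) and Cldn4 (144). Full-length mz_NrKO library 7 stood at 4.56 TPM for Cdh1, 14.0 for Cgn, 0 for Tjp1 and 156 for Cldn4. No full-length mz_DHet library of 8 March was under 85.8 TPM for Cdh1 or 509.8 for Cldn4. Whether UMI library 12 came from that mz_NrKO embryo was not tested. The part of UMI library 12 in these changes was not tested either. The 2 called members, Cldn4 and Cgn, stand beside 10.2% of genes lower in mz_NrKO and 15% lower in mz_DKO in UMI reads.

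The authors' deposited table of full-length comparisons gave log2 fold changes at 8C of -1.51 for Cldn4 (false discovery rate 1.31e-05) and -0.90 for Cgn (0.000425) in mz_NrKO, and of -2.21 (2.18e-16) and -1.65 (7.06e-22) in mz_DKO. For Cdh1 the authors' deposited table gave -0.49 (0.0610) in mz_NrKO and -0.64 (0.000737) in mz_DKO. For Tjp1 in mz_DKO it gave -0.49 (0.00324), in the authors' deposited table, where the fit with date did not pass. For Cldn7 the authors' deposited table gave 0.40 (0.0477) in mz_NrKO and 0.39 (0.0399) in mz_DKO. The changes of Cdh1 in mz_NrKO, of Tjp1 and of Cldn7 are smaller than the 1.5-fold that the authors' call required.

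**Figure D3:**
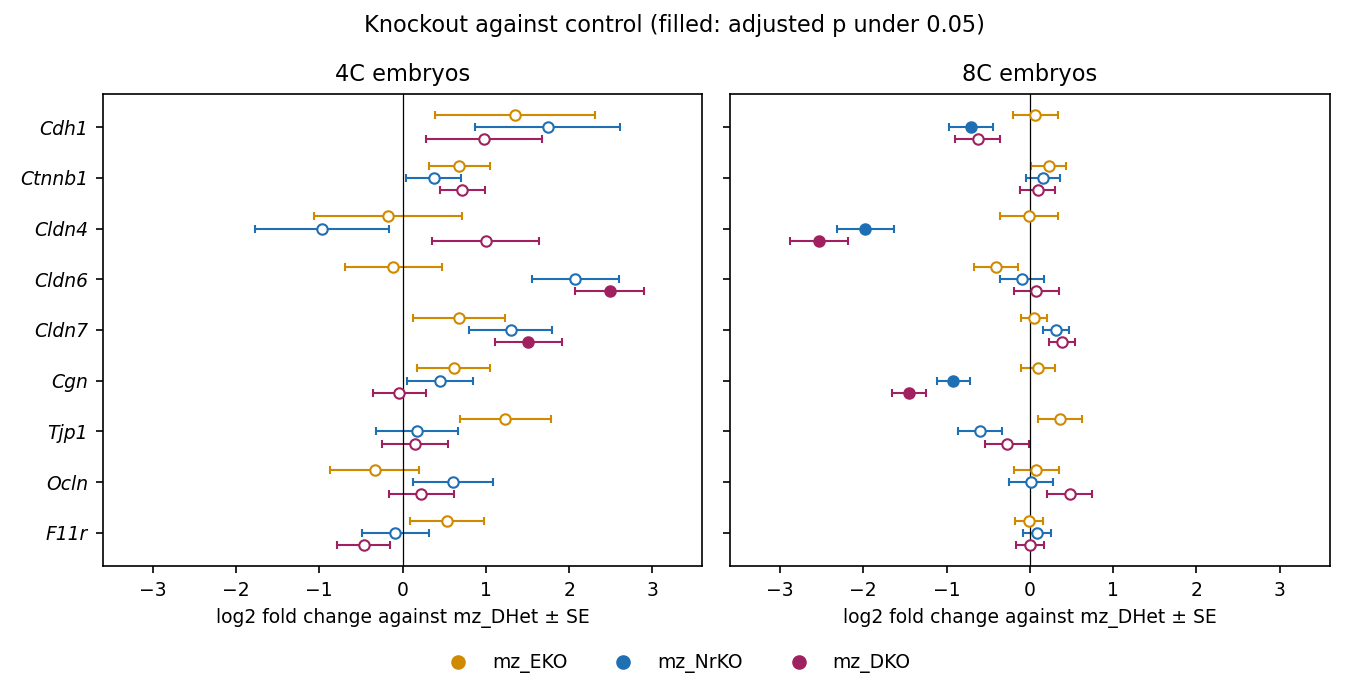
Log2 fold change of each member against mz_DHet, ± SE, at 4C (left) and 8C (right) in mz_EKO, mz_NrKO and mz_DKO. Filled points passed an adjusted p under 0.05 in limma: Cldn6 and Cldn7 in mz_DKO at 4C, and Cldn4, Cgn and, in mz_NrKO, Cdh1 at 8C.

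At 4C, before compaction, the differences lay in other members. In mz_DKO 2 of 9 members, Cldn6 and Cldn7, were higher, where 0.897% of 13044 genes were higher and 1.68% lower. In mz_NrKO no member was called, where 0.675% of genes were (1477 at an unadjusted p under 0.05), and in mz_EKO none, where 0% were (803 at an unadjusted p under 0.05, in limma). The members' median change in mz_DKO was 0.72, against 0.05 over all genes. All 9 members passed the filter at 4C, but Cldn4 did so mainly through mz_DKO, in which 5 of 10 embryos reached 5 TPM.

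Cldn6 lay at 11.0, 7.44, 13.0, 1.60, 1.17 and 28.9 TPM in the 6 mz_DHet embryos and at 1.36, 18.2, 20.3 and 41.8 in the 4 mz_EKO embryos. In the 5 mz_NrKO embryos it lay at 49.1, 40.0, 71.2, 71.9 and 44.0, and in 10 mz_DKO embryos between 20.4 and 83.6 (median 42.6). All 5 mz_NrKO embryos and 7 of 10 mz_DKO embryos exceeded the highest control, which was also the only control of 22 May. The log2 fold change was 2.49 ± 0.42 in mz_DKO (limma, adjusted p = 0.00119) and 2.07 ± 0.52 in mz_NrKO (0.0586, not called). In UMI reads, where 0.281% of genes were higher in mz_DKO, these were 2.61 ± 0.47 (0.00455) and 2.55 ± 0.59 (0.0787).

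Cldn7 lay at 50.5, 54.0, 62.7, 42.7, 84.4 and 167 TPM in mz_DHet, at 508, 216, 171, 87.7 and 351 in mz_NrKO, at 37.8, 166, 585 and 181 in mz_EKO and between 93.9 and 431 (median 196) in mz_DKO. All 10 mz_DKO embryos exceeded the control median and 6 exceeded the highest control. The log2 fold change in mz_DKO was 1.51 ± 0.40 (limma, adjusted p = 0.0376). This call was lost without the 3 libraries with blood transcripts (1.47, adjusted p = 0.156), without date (0.0852), without the filter on low values (0.129) and in UMI reads (0.0890). In mz_NrKO the change was 1.30 ± 0.50 (0.279). The authors' deposited table gave 2.36 for Cldn6 (false discovery rate 3.82e-05) and 1.53 for Cldn7 (2.23e-05) in mz_DKO at 4C. In mz_NrKO the authors' deposited table gave 2.16 for Cldn6 (0.0507), 1.63 for Cldn7 (0.0698) and 2.73 for Cdh1 (0.0706), which are under the authors' rate of 0.1, and 2.80 for Cldn6 in UMI reads (0.011).

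Cldn4 at 4C was still low in every genotype: 0.280, 1.10, 0, 3.44, 0 and 6.31 TPM in mz_DHet, 1.00, 0, 0, 0 and 0 in mz_NrKO, and 0 to 13.8 (median 4.50) in mz_DKO. Neither difference passed (limma, adjusted p = 0.705 and 0.550). Cdh1 at 4C ranged from 3.03 to 23.2 TPM in mz_NrKO and from 0.215 to 22.0 in mz_DKO, against 0 to 7.55 in mz_DHet, with changes of 1.74 ± 0.87 (0.453) and 0.98 ± 0.70 (0.610) that did not pass. The 4C spread was wide enough that a change of this size was not detectable.

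The change from 4C to 8C was compared between genotypes as an interaction. In mz_DKO it was smaller than in mz_DHet for 3 of 9 members, where 2.21% of 18111 genes had a smaller change and 3.58% a larger one. For Cldn4 the difference was -3.53 ± 0.66 (limma, adjusted p = 0.000103), for Cldn6 -2.42 ± 0.59 (0.00404) and for Cgn -1.43 ± 0.36 (0.00589). Cldn4 passed the filter in this fit mainly through its 8C level, and at 4C 5 of 10 mz_DKO embryos reached 5 TPM. Their levels differ in course: Cldn4 began near 0 in both genotypes and reached a mean of 589.7 TPM in mz_DHet and 139 in mz_DKO. Cldn6 went from a mean of 10.5 to 27.2 in mz_DHet and from 43.6 to 30.2 in mz_DKO. Cgn went from 16.4 to 37.6 in mz_DHet and from 16.3 to 14.7 in mz_DKO, and this difference was lost without date in the fit (-1.14, adjusted p = 0.179). In mz_NrKO none of the 9 was called, where 1.41% of genes were (2324 at an unadjusted p under 0.05): Cdh1 had -2.19 ± 0.70 (0.0952), Cldn6 -2.11 ± 0.67 (0.0903), and Cgn -1.28 ± 0.41 (0.0977), and for Cldn4 the adjusted p was 0.637. In mz_EKO none was called, where 0% were (828 at an unadjusted p under 0.05).

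**Figure D4:**
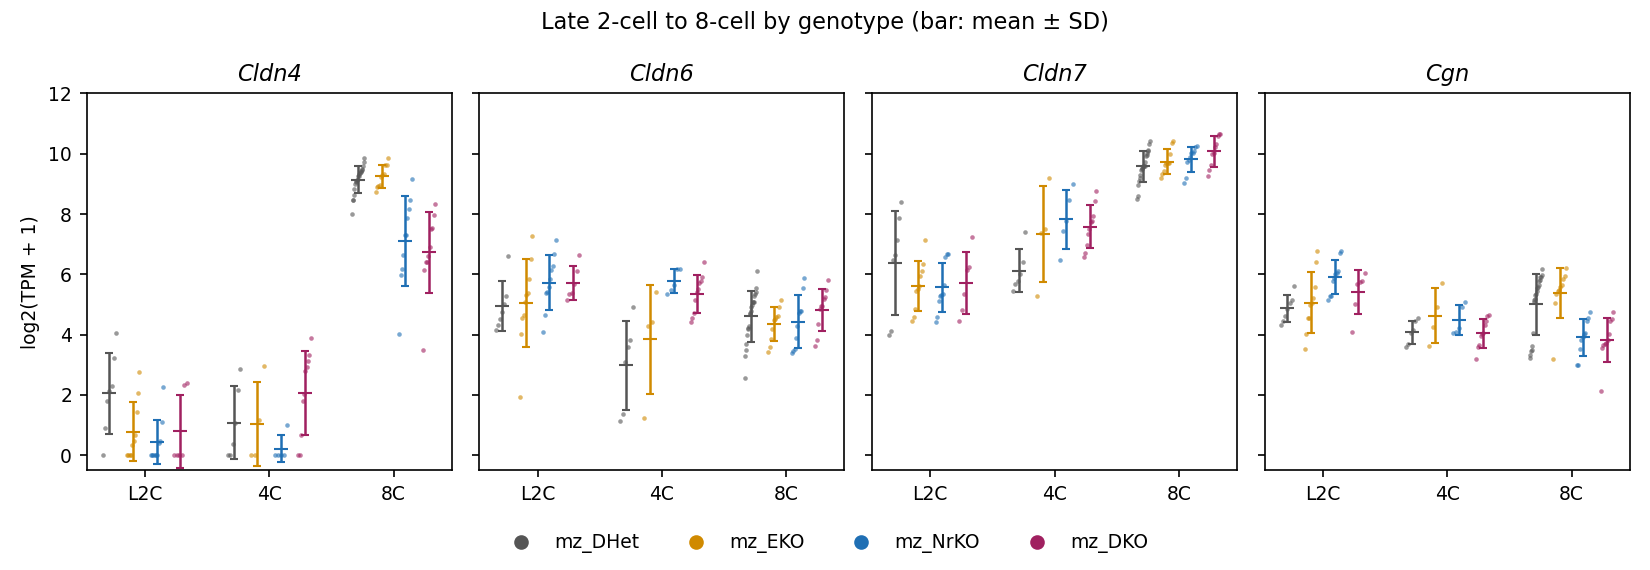
Level of 4 members from L2C to 8C in the mz groups, as log2(TPM + 1), with single embryos as points and the mean ± SD as bars. At 4C the means of Cldn6 and Cldn7 lie above mz_DHet in mz_EKO, mz_NrKO and mz_DKO, and at 8C those of Cldn4 and Cgn lie below it in mz_NrKO and mz_DKO.

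At L2C none of the 8 members that passed the filter (all but Cldn4) was called in mz_NrKO, mz_EKO, mz_DKO or z_NrKO, where 0.127%, 0%, 0.141% and 0.099% of 14147 genes were, by limma (1143, 947, 1181 and 1207 at an unadjusted p under 0.05). All 10 mz_NrKO libraries were of 8 March, beside 2 mz_DHet, and 2 mz_EKO libraries were of 17 June, beside no mz_DHet. Cldn7 in mz_NrKO had a fitted change of 0.91 ± 0.51 although its mean was 53.8 TPM against 132 in mz_DHet. The lowest adjusted p there was 0.0938, for Ctnnb1 in mz_DKO (1.29 ± 0.32), with a mean of 89.2 TPM ± 17.2 (SD, n = 6) against 39.4 ± 14.9 (n = 7). All 6 L2C mz_DKO embryos exceeded the highest mz_DHet embryo for Ctnnb1 (66.3 to 108 TPM against 17.5 to 54.0) and for Tjp1 (11.8 to 16.7 against 4.84 to 7.82), and the fitted Tjp1 change was 1.08 ± 0.42 (adjusted p = 0.418). In UMI reads 2 of 6 did so for Ctnnb1 and 3 of 6 for Tjp1. The share of all genes that separate likewise was not counted. The authors' deposited table called both higher in full-length reads, Ctnnb1 by 1.08 (false discovery rate 0.00885) and Tjp1 by 1.15 (0.0223). In the authors' UMI comparison their changes were 0.82 (0.242) and 0.56 (0.752), above the authors' rate of 0.1. At E2C 7 members passed the filter (not Cldn4 or Cldn6), and Ctnnb1 was higher in mz_NrKO than in mz_NrHet (0.56 ± 0.16, adjusted p = 0.0177), where 0.667% of 13040 genes were higher and 4.5% lower (12.9% of the called genes were higher, and 39.5% with median-of-ratios scaling). Against mz_Nrpp the Ctnnb1 change was 0.32 (adjusted p = 0.405). In m_NrKO and z_NrKO no member was called, where 0.245% and 0% of genes were (1738 and 701 at an unadjusted p under 0.05), and the m_NrKO change of Ctnnb1 was 0.59 ± 0.17 (adjusted p = 0.0791). In oocytes 6 members passed the filter (not Cldn6, Cldn7 or F11r) and none was called between NrKO and NrHet, where 0.212% of 8952 genes were (1062 at an unadjusted p under 0.05).

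Other junction genes were read from lists of genes with a known function, set with earlier results of these data known, and their counts stand beside 14.2% of all 10876 genes lower and 14.1% higher. At 8C in mz_NrKO, of 14 other adherens junction genes 9 were tested, 4 fell and 1 rose (median -0.15, against 0.00 over all genes). Nectin2, which encodes an adhesion receptor of adherens junctions, changed by -2.86 ± 0.35 (limma, adjusted p = 1.42e-08), Ctnna1, the gene of αE-catenin, by -0.60 ± 0.17 (0.00589), Afdn, the gene of afadin, by -0.74 ± 0.27 (0.0352), and Jup, the gene of plakoglobin, by 0.66 ± 0.22 (0.0195). Of 39 other tight junction and polarity genes 18 were tested, 4 fell and 1 rose (median -0.39). The polarity genes Pard6b and Prkcz changed by -1.69 ± 0.29 (1.33e-05) and -1.45 ± 0.29 (0.000114), Marveld2, the gene of tricellulin, by -1.17 ± 0.28 (0.00117), and Jam2, a relative of F11r, by 0.97 ± 0.31 (0.0138), in limma. Desmosome and keratin genes had 2 lower and 1 higher of 6 tested (Krt7 -1.78 ± 0.47, Pkp2 -1.18 ± 0.37, Krt19 1.49 ± 0.48).

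Against the same 14.2% lower and 14.1% higher over all genes, genes of the cortex and of compaction had 4 lower and 1 higher of 20 tested, with a median of -0.22. Actn4, which encodes an actin crosslinker, changed by -1.63 ± 0.25 (limma, adjusted p = 2.31e-06), Myl6, a myosin light chain gene, by -0.62 ± 0.13 (0.000298), Cdc42, a small GTPase gene, by -0.44 ± 0.12 (0.00501) and Dlg1, a scaffold gene, by 1.54 ± 0.29 (5.33e-05). Regulators of trophectoderm and epithelium had 9 lower and 1 higher of 15 tested, with a median of -1.37: Klf5 changed by -1.60 ± 0.17, Klf4 by -2.12 ± 0.27, Ovol1 by -3.05 ± 0.33 and Wwtr1, a Hippo pathway coactivator gene, by 1.75 ± 0.21. Genes of blastocoel transport had 2 lower and 2 higher of 5 tested, among them the aquaporin gene Aqp3 (-2.71 ± 0.39) and the sodium pump gene Atp1b3 (1.06 ± 0.16). Pluripotency genes had 5 lower and 2 higher of 11 (Dppa5a -1.36 ± 0.15, Tfcp2l1 -1.67 ± 0.23), and 4 of 5 genes of the 2-cell burst (Tdpoz4 3.67 ± 0.74) and 1 of 3 maternal genes (Zp3 1.36 ± 0.38) were higher. In mz_EKO no gene of any of these lists was called.

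Each member's control and knockout group means were compared with those of 11026 genes over all 22 groups, as a description of likeness (Pearson r of mean log2(TPM + 1), where the groups share dates and processing). The gene nearest to Cldn4 was Dap (r = 0.951), to Cdh1 Barx2 (0.965), to Cgn Triobp (0.976), to Ctnnb1 Tnks1bp1 (0.963) and to Tjp1 Heatr5b (0.936). For Cldn7 it was Cct4 (0.984), for Cldn6 Armc6 (0.981), for Ocln Ten1 (0.982) and for F11r Dnajc15 (0.996).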

How the data were processed

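Single oocytes and embryos were sequenced with a FLASH-seq derived protocol, per the labels' protocols. The authors deposited TPM per gene and library for full-length reads and, separately, for UMI reads, per the file headers. The programs cutadapt, STAR, RSEM and DESeq2 and genome build mm10 appear in the submitters' processing notes, without versions. The authors' deposited comparisons hold log2 fold changes and false discovery rates (adjusted p-values); the authors' call required over 10 TPM in at least 1 sample of a stage, 1.5-fold and a rate under 0.1, per the file headers. Here 65 entries without a gene name were left out. TPM keep no counts, so tests used limma 3.58.1 (R 4.3.3, trend, two-sided) on log2(TPM + 1), which understates changes of low genes. Each stage was fitted with group and date as factors, for genes with at least 5 TPM in as many libraries as the smallest group, with Benjamini-Hochberg adjustment over all genes tested. Full-length columns sum to between 814734 and 995882 TPM. The method was tested on simulated data. No pair of libraries was identical. The genes named were the 9 members, Nr5a2 and Esrrb, up to 4 tested genes of each list with the smallest adjusted p in 8C mz_NrKO, and the nearest genes by correlation. The members and lists were chosen with earlier results of these data known.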

Additional observations from a re-analysis of the deposited data

Results flagged for a closer look

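Of 106 combinations of a member and a group of 4 to 10 full-length libraries from L2C to 8C with a mean of at least 5 TPM, 6 held a library far from the rest on the log2(TPM + 1) scale by Dixon's criterion, a share of 5.66%, where chance flags about 1 in 20. All 6 were the lowest of their group. Cdh1 was at 0.912 TPM in L2C mz_NrKO library 4, with the next at 5.75. Cldn6 was at 0 TPM in L2C z_NrKO library 4, with the next at 16.1. Cldn4 was at 10.2 TPM in 8C mz_DKO library 8, with the next at 68.9. Cgn was at 8.18 TPM in 8C mz_EKO library 1, with the next at 32.3, and at 3.33 in 8C mz_DKO library 1, with the next at 10.7. Ocln was at 18.2 TPM in 8C mz_EKO library 6, with the next at 40.0. The 2 low Cgn values belong to the single libraries of their groups dated 23 February 2022.

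The change from 4C to 8C differed between mz_DKO and mz_DHet, by the interaction test in limma, for Cldn4 (-3.53), Cldn6 (-2.42) and Cgn (-1.43). Date, which 4C and 8C do not share, may enter these values and cannot be told apart from stage beyond what the L2C libraries allow.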

How the results depend on the processing

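At 8C the calls of Cldn4 and Cgn in mz_NrKO and mz_DKO held whichever of the 51 libraries was left out. Their changes ranged from -2.22 to -1.69 and from -1.07 to -0.73 in mz_NrKO, and from -2.71 to -2.17 and from -1.53 to -1.40 in mz_DKO. The Cdh1 change in mz_NrKO ranged from -0.82 to -0.28 and was lost in 2 of 51. The number of members called ranged from 2 to 4 in mz_NrKO and from 2 to 3 in mz_DKO. It was 0 in the 15 July libraries alone (chosen after seeing the data), a fit of 7 libraries.

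In 4C mz_DKO the count went from 2 to 1 (Cldn6) without the filter, without date, with the replicate block, in UMI reads and without the 3 libraries with blood transcripts. In 4C mz_NrKO it went from 0 to 1 without date, in 17 June libraries alone (Cldn7), and without mz_EKO library 1, mz_EKO library 4 or mz_NrKO library 5 (Cldn6), a range of 0 to 1. Without date it was 2 in L2C mz_NrKO, 1 in L2C mz_DKO, 0 in E2C mz_NrKO, 2 from L2C to 4C and 1 for the 4C to 8C difference in mz_NrKO. In E2C mz_NrKO it was 0 without the filter and against mz_Nrpp, and 2 without mz_NrKO library 1. In E2C m_NrKO it was 1 with median-of-ratios scaling and 1 without mz_NrKO library 1. In oocytes it was 1 (Cgn) against Nrpp. The causes were not tested.

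Among the alternatives fitted, signs turned for 8C changes that had not been called and for Cdh1 in mz_NrKO on 15 July (0.36). The single mz_NrKO embryo of 23 February, too few for a fit, was higher than its controls for Cldn4, Cgn and Cdh1 in full-length reads. UMI reads gave no second reading of that embryo, since the mz_NrKO UMI library labelled with its date followed an embryo of 8 March by Cldn4. Without date Ctnnb1 was -0.0195, F11r -0.012 and Ocln -0.0717 in mz_NrKO, and F11r 0.16 in mz_DKO. In UMI reads F11r was 0.0772 in mz_DKO. On 8 March F11r was -0.28 and Ocln -0.21 in mz_NrKO (F11r -0.0442 without library 7), and Ctnnb1 -0.0929 and F11r 0.008 in mz_DKO. With 1 library left out, the mz_NrKO range was -0.26 to 0.0657 for Cldn6 and -0.13 to 0.16 for Ocln, and the mz_DKO range was -0.0198 to 0.22 for Cldn6, -0.0307 to 0.20 for Ctnnb1 and -0.0703 to 0.11 for F11r.

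Libraries of the same number share only that number: 4 of 10 pairs of groups had correlated deviations over 0.1 (from -0.21 to 0.25). With the number as a replicate block, 764 genes rose and 953 fell in 8C mz_NrKO, in place of 1532 and 1543, Cldn6 was 0.16, F11r -0.25 and Ocln -0.27. Without the filter on low values, 33500 genes were tested at 8C. TPM keep no depth, so counting error could not be given.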
